A study of Mus musculus with 6 samples.

Results

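The step from pre-dendritic cells (pre-DC) to immature dendritic cells (immature DC) was examined in mouse bone marrow cultures, on 4 of the 6 arrays of the series. The 4 arrays were chosen by their labelled stage: 2 held pre-DC, which were all cells of the culture after 2 days, and 2 held immature DC, which were the semi-adherent cells taken at day 7. Within each stage 1 culture had received the p38 kinase inhibitor SB202190 (1.5 mM in the labels, with the unit unchecked) and 1 its solvent DMSO (0.1%). All 4 cultures came from C57BL/6 marrow and grew with GM-CSF at 20 ng/ml, and none of the 4 had been given the TNF-a and IL-1b used later for maturation. The stages therefore differ in time and also in which cells were collected. Age, sex and pooling of the animals are not stated, and no label says that the cultures were set up independently, so the spread between arrays may be partly technical.

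GM-CSF is a growth factor under which marrow progenitors divide and then turn into granulocytes, macrophages and dendritic cells. Dendritic cells take up material, cut it in endosomes and lysosomes, and show the peptides on MHC class II molecules to T cells. Immature dendritic cells are known for uptake and for low display of costimulatory molecules, and the marrow they grow from also holds dividing granulocyte precursors, red cell precursors and lymphocytes.

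Between 15120 and 15328 of 45281 probes were detected on each array (detection p under 0.01), and median raw intensities ran from 130 to 146.2, the lowest on the immature DC array with SB202190. Over all genes tested, the 2 arrays of a stage correlated at r = 0.993 for pre-DC and 0.988 for immature DC, while arrays of the same treatment but different stage correlated at 0.896 with DMSO and 0.876 with SB202190. Values below are normalized intensities on the log2 scale, given with the DMSO array first and the SB202190 array second. Differences are immature DC minus pre-DC on the log2 scale with the standard error (SE) of a limma fit that held treatment as a block. Every SE is that of the log2 difference, also where a fold is printed beside it. A gene passed when its Benjamini-Hochberg adjusted p was under 0.05 over all 8924 genes tested. A probe reports 1 transcript region, so levels are compared between arrays and not between genes.

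Much of the measured transcriptome differed between the stages. Of the 8924 genes, 4692 passed (52.6%), with 2334 higher in immature DC (26.2%) and 2358 lower (26.4%). Counts for the gene lists below are to be read against these shares. Differences of 2-fold or more were found for 1114 higher genes (12.5%) and 955 lower genes (10.7%), and of 16-fold or more for 30 and 18. The median difference over all genes was -0.01, and the smallest difference that passed was 0.39. Both immature DC arrays lay above both pre-DC arrays for 39.1% of the genes tested and below them for 40.8%. Among the passing genes, 307 of the higher ones were not detected on either pre-DC array and 253 of the lower ones were not detected on either immature DC array. For such genes the fold is given as a lower bound, set against the dimmest detected signal of each array. Further genes were detected on 1 array of a stage, as is said where they are described or here: Pnkd, Apoe and Lrp1 in pre-DC, and Hbb-bt, Dmkn, Mcpt8, Siglech, Cox6a2, Cst7, Pcna, Cdk6, C5ar1, Scarb1 and Nr1h3 in immature DC. Values are of a gene's brightest probe. In 20 of the 304 genes named with values, detected probes differed from each other by over 1 log2 unit, as is said for Aldoc, Ctsa, Ltf, Lpl and Fcgr2b. The others ran from -6.89 to -2.02 for Hbb-bt, -6.45 to -3.10 for Hbb-bs, 1.41 to 4.75 for Pnkd, 1.69 to 3.74 for Fn1, 2.68 to 4.65 for Klk1b9 and 4.84 to 6.66 for Arg1, and were closer together for Klk1b27, Fcrla, Ms4a3, Cd74, Csf3r, Il7r, Blk, Il15 and Klrk1. The residual of the fit is how the step differed between the DMSO pair and the SB202190 pair, with 1 degree of freedom, and the counts moved by more than 1.5 times when the immature DC array with SB202190 was left out (1382 higher and 1252 lower), as did the lower count without the immature DC array with DMSO (1554).

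Of the 8924 genes tested, 1204 had opposite signs in the 2 pairs. The residual of the fit is that difference between pairs, so a gene of opposite signs could not pass. Over all genes tested, the DMSO pair alone differed by 2-fold or more in 1084 genes upward and 862 downward, and the SB202190 pair in 1216 and 1072. Of the 1114 higher genes with an average difference of at least 2-fold, 919 exceeded 2-fold in both pairs, as did 722 of the 955 lower genes. Among the 4692 passing genes, 124 had pair differences more than 1 log2 unit apart. These included the actin bundler Fscn1 (3.61 with DMSO and 6.94 with SB202190), the maturation marker Cd83 (2.36 and 5.32) and the stem cell factor receptor Kit (-2.34 and -1.09). Whether such steps differed between the treatments could not be tested with 1 array for each combination.

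**Figure D1:**
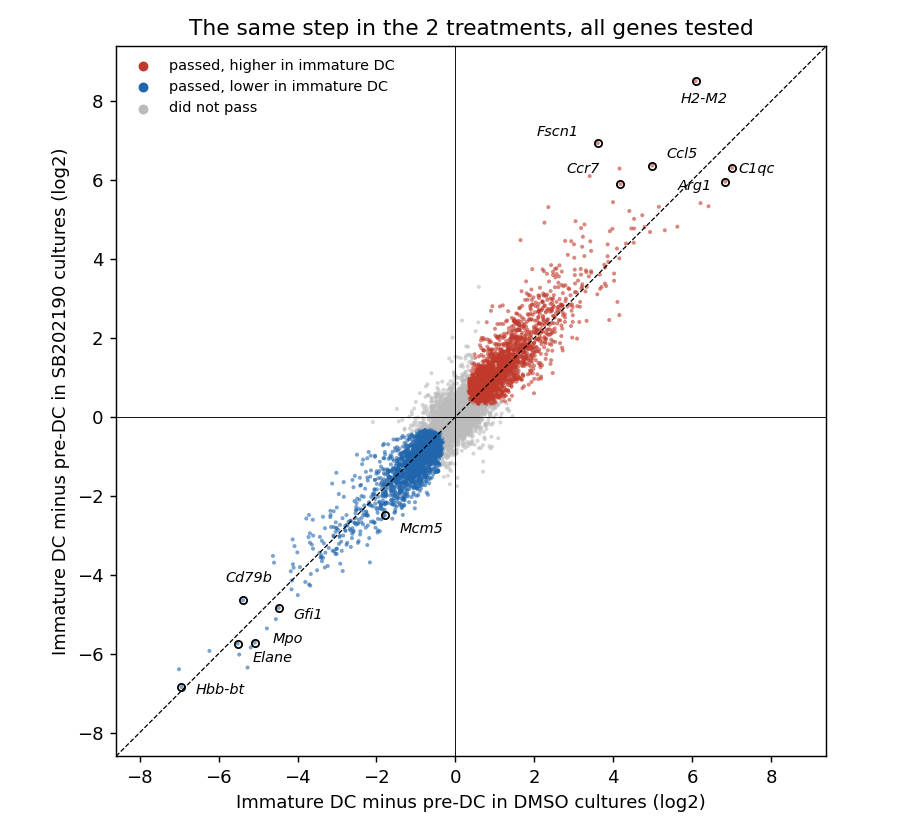
Each point is 1 of the 8924 genes tested, with its log2 difference between immature DC and pre-DC in the DMSO cultures on the x axis and in the SB202190 cultures on the y axis; red and blue mark the 2334 higher and 2358 lower genes, grey the rest, and the dashed line marks equal differences. Fscn1 and H2-M2 lie above the line, with larger differences in the SB202190 pair, while Hbb-bt lies close to it at -6.94 and -6.85.

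The genes that gained most in immature DC encoded complement, tissue kallikreins, a chemokine, an arginine-degrading enzyme and a nonclassical class I molecule. H2-M2, an MHC class I-like gene, measured 6.60 and 4.76 in pre-DC and 12.69 and 13.27 in immature DC. In pre-DC 1 array of 2 detected its probe, and the mean difference was 7.30 (SE 0.61, adjusted p = 0.00330). Arg1, which splits arginine, measured 4.94 and 4.41 in pre-DC and 11.95 and 10.72 in immature DC, where neither pre-DC value was above background. Arg1 was at least 56.8-fold higher in immature DC (adjusted p = 0.00148). The chemokine Ccl5 measured 8.07 and 7.23 in pre-DC and 13.06 and 13.60 in immature DC, a 51.2-fold rise (SE 0.36, adjusted p = 0.00224). These genes were picked by the size of their difference, so the separation of their stages largely follows from that choice. The other genes among the 20 with the largest rises were C1qa, C1qb, C1qc, Klk1b27, Klk1b11, Klk1b1, Klk1b9, Fscn1, Tnfrsf9, Ccr7, Fcrls, Mgarp, Cxcl16, Fblim1, Dmrta2, Pnkd and Adam23, with fitted differences between 4.65 and 6.40. Of these, C1qa, Klk1b9, Mgarp, Fblim1 and Dmrta2 were not detected in pre-DC. The 4 Klk1b genes are tissue kallikreins of nearly identical sequence, so their probes may share signal.

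The genes that fell most included globins and genes of granulocyte precursors and B cells. Hbb-bt, a beta globin, measured 12.61 and 12.11 in pre-DC and 5.66 and 5.26 in immature DC, a mean difference of -6.89 (SE 0.12, adjusted p = 0.00148). Hba-a1, an alpha globin, measured 11.77 and 11.54 in pre-DC and 4.76 and 5.14 in immature DC and was at least 70.1-fold lower (adjusted p = 0.00148). Both globins were likewise picked by the size of their difference, so the gap between their stages is not separate evidence. The remainder of the 20 largest falls were Hbb-bs, Ms4a3, Ctsg, Elane, Prtn3, Mpo, Dmkn, Cd79b, Nkg7, Gfi1, Cd177, Adgrg3, Plac8, Ly6d, Vpreb3, Fcnb, Mmp9 and Cebpe, with fitted differences between -6.08 and -3.98. Of these, Ly6d and Vpreb3 were not detected in immature DC. In bulk RNA fewer cells of a type and less RNA per cell cannot be told apart, and this holds for every cell type marker below.

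Genes of primary granules and promyelocytes were lower in immature DC. All 8 tested genes of that list passed, with a median difference of -5.46 against -0.01 over all genes. Mpo, the myeloperoxidase of azurophil granules, measured 15.02 and 14.96 in pre-DC and 9.94 and 9.23 in immature DC, which was 42.3-fold lower (SE 0.19, adjusted p = 0.00148). The neutrophil serine proteases moved by a like amount: Elane, neutrophil elastase, was 49.6-fold lower, Prtn3, proteinase 3, 45.7-fold, and Ctsg, cathepsin G, 53.9-fold. Ms4a3, a membrane protein of granulocyte and monocyte precursors, measured 12.94 and 12.68 in pre-DC and 7.67 and 6.33 in immature DC. Serpinb1a, an inhibitor of these proteases, differed by -3.17. The summed normalized intensity of the list was 102360 and 91074 in pre-DC and 3084 and 1880 in immature DC.

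Gfi1 and Cebpe, transcription factors of that lineage, are members of the same list and already count in its median. Gfi1, a repressor needed for neutrophil production, measured 10.44 and 10.13 in pre-DC and 5.96 and 5.29 in immature DC and was detected on 1 of the 2 immature DC arrays (-4.66, SE 0.15, adjusted p = 0.00148). Cebpe, which drives the secondary granule genes, measured 12.33 and 12.27 in pre-DC and 8.62 and 8.03 in immature DC, a 15.8-fold fall (SE 0.18, adjusted p = 0.00148). Spi1 (PU.1) and Cebpa, the factors shared by all myeloid lineages, had differences of -0.18 (adjusted p = 0.252) and -0.24 (adjusted p = 0.147) and did not pass.

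Later neutrophil genes fell too, with a smaller median. Of 21 tested, 19 were lower and 2 higher, with a median of -2.76. Ltf, lactoferrin of the secondary granules, measured 15.35 and 15.39 in pre-DC and 12.88 and 12.70 in immature DC, a 5.97-fold fall (SE 0.13, adjusted p = 0.00158), and its other detected probe differed by -4.51. Camp, the cathelicidin, was 9.62-fold lower, Ngp 9.45-fold and Lcn2, a siderophore-binding protein, 9.55-fold. Mmp9, the gelatinase of the tertiary granules, measured 13.21 and 13.003 in pre-DC and 9.41 and 8.82 in immature DC, and Cd177, a neutrophil surface protein, 14.41 and 14.40 in pre-DC and 10.26 and 10.03 in immature DC. Itgb2l, Retnlg, Ifitm6 and the chemokine receptor Cxcr2 differed by -3.87, -3.37, -3.96 and -2.71. S100a8, a calcium-binding protein of neutrophils and monocytes, was close to the threshold (-0.57, adjusted p = 0.0432), and its call ended with 75th percentile scaling, with no detection filter, without the pre-DC SB202190 array (-0.46) and without the immature DC SB202190 array (-0.34). The 2 higher members, named after their values were seen, were the stefin A genes Stfa1 (1.38) and Stfa2 (1.29), a family of near-identical copies. Both calls ended when treatment was not held as a block, Stfa1 also without the immature DC DMSO array (1.15), and Stfa2 also without the pre-DC SB202190 array (0.58) or either immature DC array (1.54 without DMSO, 1.05 without SB202190). The list's summed intensity was 310277 and 293748 in pre-DC and 84380 and 62747 in immature DC.

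**Figure D2:**
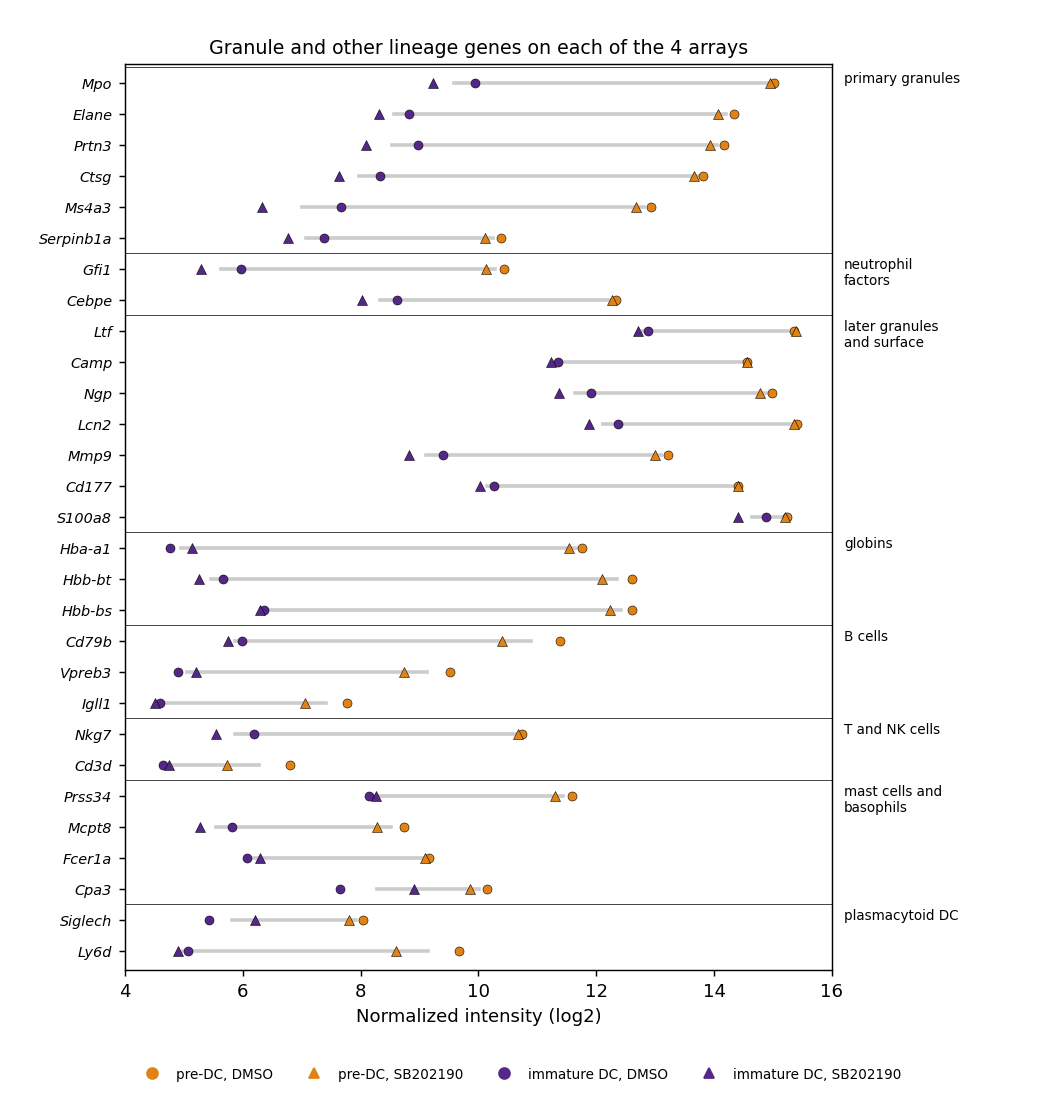
Normalized intensity (log2, x axis) of 29 granule and other lineage genes on each of the 4 arrays, with colour for the stage, shape for the treatment and a grey bar joining the stage means. Primary granule genes such as Mpo fell, for Mpo from 15.02 and 14.96 in pre-DC to 9.94 and 9.23 in immature DC, while the probe shown for Ltf measured 12.88 and 12.70 in immature DC.

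Some genes of other marrow lineages were detected on the pre-DC arrays, and the share of tested genes that was lower in immature DC varied from list to list. In the B cell list, 8 of 10 tested genes fell and 2 rose, and a further 6 genes were not detected on any array. Cd79b, a chain of the B cell receptor, measured 11.38 and 10.40 in pre-DC and 5.997 and 5.75 in immature DC, a 32.3-fold fall (SE 0.22, adjusted p = 0.00148). Vpreb3 and Igll1, which act in the pre-B cell receptor, were not detected on either immature DC array and were at least 12.2-fold and 3.71-fold lower. Vpreb1 and the kinase gene Blk were likewise undetected in immature DC, at least 3.50-fold and 6.48-fold lower. Ebf1, the factor that commits cells to the B lineage, was at least 1.76-fold lower (adjusted p = 0.0115), a call that ended without either immature DC array (-0.92 without DMSO, -1.01 without SB202190). The 2 that rose were Il7r, the interleukin-7 receptor (3.09), and Blnk, an adaptor of the B cell receptor (0.96, named after its value was seen). The summed intensity of the list was 4896 and 2821 in pre-DC and 2228 and 3366 in immature DC. Bright probes weigh most in such a sum, and it includes Il7r. Il7r measured 8.14 and 7.92 in pre-DC and 10.76 and 11.48 in immature DC. The overlap of the sums therefore does not describe the 8 genes that fell.

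Mast cell and basophil genes fell in 6 of 6 tested cases, with a median of -2.94. Prss34, a basophil protease, measured 11.58 and 11.31 in pre-DC and 8.15 and 8.26 in immature DC, a 9.43-fold fall (SE 0.15, adjusted p = 0.00152). Mcpt8, another basophil protease, differed by -2.97, Fcer1a, the alpha chain of the high-affinity IgE receptor, by -2.94, and Hdc, which makes histamine, by -2.94. Cpa3, the mast cell carboxypeptidase, measured 10.14 and 9.87 in pre-DC and 7.65 and 8.91 in immature DC, with the smaller fall in the SB202190 pair. Its call (-1.73, adjusted p = 0.0267) ended without the pre-DC DMSO array (-0.73) and without either immature DC array (-1.57 without DMSO, -1.88 without SB202190). The summed intensity of the list was 9809 and 7525 in pre-DC and 1079 and 1472 in immature DC.

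Among eosinophil genes Epx, the eosinophil peroxidase, was 4.17-fold lower, Prg3 3.68-fold and Prg2, the major basic protein, 1.86-fold, the last of these a call that ended without the immature DC SB202190 array (-0.60). Ear10, a ribonuclease gene with many near-identical copies, was 5.56-fold higher. Siglecf was not detected on any of the 4 arrays. Summed over the eosinophil list, intensity was 10580 and 8755 in pre-DC and 8073 and 4678 in immature DC. Of 8 tested T and NK cell genes 5 were lower (62.5%, against 26.4% over all genes) and 1 higher (12.5%, against 26.2%). By the fitted difference 2 of the 5 were at least 2-fold lower. A further 10 genes of that list were not detected on any array. The largest fall was that of Nkg7, a granule protein of cytotoxic cells. Nkg7 measured 10.74 and 10.68 in pre-DC and 6.19 and 5.55 in immature DC (-4.84, SE 0.18, adjusted p = 0.00148). Klrk1, an activating NK receptor gene, rose at least 2.65-fold. Cd3d, a T cell receptor chain, fell at least 1.68-fold, and Cd3e was detected on 1 pre-DC array, too few to be tested. Of 7 tested plasmacytoid DC genes 3 were lower, 2 higher and 2 did not pass (median 0.90). Siglech measured 8.04 and 7.81 in pre-DC and 5.43 and 6.21 in immature DC, a 4.30-fold fall, Cox6a2 was 4.65-fold lower and Ly6d at least 12.3-fold lower. The 2 that rose, named after their values were seen, were Bst2, a membrane protein that tethers virus particles (2.70-fold), and Lag3, an inhibitory receptor (at least 1.60-fold). Tcf4, the factor that specifies plasmacytoid DC, had a difference of 0.90 that did not pass (adjusted p = 0.0537) and passed in 7 alternative settings other than leaving out an array. Ccr9 was not detected on any array. Summed over the T and NK cell list it was 6299 and 6172 in pre-DC and 3009 and 3154 in immature DC, while the sum of the plasmacytoid list overlapped between the stages (2767 and 1740 against 2297 and 3231).

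Few red cell genes other than the globins passed. Of 10 tested in that list 4 fell and 6 did not pass. The falls were Hba-a1 as above, Tfrc, the transferrin receptor through which dividing cells take up iron (-2.18, SE 0.23, adjusted p = 0.00459), Nfe2 (-1.74), a factor of red cells and platelets, and the haem enzyme gene Alad (-0.69, named after its value was seen). The Alad call ended without the immature DC SB202190 array (-0.59). Klf1 was not detected on any array and Alas2 on 1, a pre-DC array. Stroma was barely represented: 3 of its 14 genes were tested, Vcam1 (-2.24) and Pecam1 (-1.07) were lower and Bgn higher (at least 1.46-fold), while Col1a1 was not detected and Cxcl12 was detected on 1 immature DC array. The Pecam1 call ended without the immature DC DMSO array (-0.74), and the Bgn call with no background correction, in the fit over all 6 arrays, without either pre-DC array (0.63 without DMSO, 0.75 without SB202190) and without the immature DC SB202190 array (0.30). The summed intensity was 17663 and 15835 in pre-DC and 6768 and 5962 in immature DC for the red cell list, and 939 and 631 against 239 and 293 for stroma and endothelium. The part of these lineages in the other differences between the stages was not tested.

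Kit and Gata2 fell among the markers of stem and progenitor cells. Of 9 tested genes 4 fell (44.4%, against 26.4% over all genes), 1 rose (11.1%, against 26.2%) and 4 did not pass. Kit, the receptor for stem cell factor, measured 10.58 and 10.46 in pre-DC and 8.24 and 9.37 in immature DC, and both immature DC arrays lay below both pre-DC arrays (-1.71, SE 0.33, adjusted p = 0.0172). Gata2, a factor of stem cells and mast cells, was 2.95-fold lower, and Myb, which keeps progenitors dividing, at least 1.30-fold lower. Cd34 was at least 1.24-fold lower (adjusted p = 0.0163), a call that ended without background correction, without the pre-DC SB202190 array (-0.50) and without either immature DC array (-0.67 without DMSO, -0.61 without SB202190). The gene that rose was Tal1 (1.04, SE 0.12). Flt3, the receptor that marks DC precursors in marrow, was not detected on any of the 4 arrays, so the label pre-DC has no Flt3 signal beside it here. The summed intensity of the list was 6772 and 7480.3 in pre-DC and 4871.5 and 5492 in immature DC. A gene whose probes are all below background is not shown to be silent, and 10378 probes carry no gene name in the annotation used.

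The cell cycle machinery fell together. In the list for mitosis and chromosome segregation 21 of 26 tested genes were lower and none higher, against 26.4% lower over all genes, with a median of -1.10. Plk1, the kinase that takes cells into and through mitosis, measured 11.35 and 11.42 in pre-DC and 10.12 and 9.50 in immature DC, a 2.98-fold fall (SE 0.21, adjusted p = 0.00717). Top2a, which untangles sister chromosomes, measured 11.27 and 11.24 in pre-DC and 10.23 and 9.64 in immature DC, a 2.49-fold fall. Tpx2 and Kif11, both of the spindle, differed by -1.69 and -1.45, and Cdc20, which starts anaphase, by -1.52. Ect2, needed for the final cut between daughter cells, was at least 2.01-fold lower. For Plk1, Top2a, Tpx2, Kif11 and Cdc20 the immature DC array with SB202190 was the lowest of the 4.

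Genes of DNA replication fell almost without exception. Of 45 tested 41 were lower and none higher, with a median of -1.30, and 29 were at least 2-fold lower. Mcm5 and Mcm2, subunits of the helicase that opens the double helix, were both lower on each immature DC array. Mcm5 measured 12.75 and 12.81 in pre-DC and 10.96 and 10.32 in immature DC, a 4.41-fold fall (SE 0.21, adjusted p = 0.00416). Mcm2 measured 10.53 and 10.45 in pre-DC and 8.68 and 8.12 in immature DC, a 4.26-fold fall (SE 0.17, adjusted p = 0.00307). Cdc45 and Cdc6, which load and start that helicase, had the largest differences of the list, at -2.42 and -2.24. Ccne2, the S phase cyclin E2, was 3.71-fold lower and Rrm2, which makes deoxynucleotides, 3.09-fold. Pcna, the sliding clamp, was dim and differed by -0.83, a call that ended without the immature DC SB202190 array (-0.55).

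The promoters of 3 of these genes are shown as examples that hold short sequences known from cell cycle promoters. The windows run from 250 bases before to 50 bases after the annotated start, are written along the gene's own strand, and come from RefSeq on build GRCm38.p6. The mitosis promoters are those of Plk1 (chr7:122159185-122159484, plus strand) and Top2a (chr11:99024140-99024439, minus strand), where capitals mark TTTGAA, the cell cycle homology region, and CCAAT, the box bound by NF-Y, each on either strand. The replication promoter is that of Mcm5 (chr8:75109259-75109558, plus strand), where capitals mark TTGGCGC, a form of the E2F site, on either strand. Mcm5 was chosen because it holds that site, whereas the windows of Mcm2, Pcna and Rrm2 held no TTGGCGC.
Plk1: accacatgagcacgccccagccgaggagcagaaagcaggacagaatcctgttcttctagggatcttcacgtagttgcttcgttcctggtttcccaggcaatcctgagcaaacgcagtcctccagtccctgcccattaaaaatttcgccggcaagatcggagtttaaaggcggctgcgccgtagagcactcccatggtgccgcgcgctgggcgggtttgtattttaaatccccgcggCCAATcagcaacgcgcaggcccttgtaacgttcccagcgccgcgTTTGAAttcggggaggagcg
Top2a: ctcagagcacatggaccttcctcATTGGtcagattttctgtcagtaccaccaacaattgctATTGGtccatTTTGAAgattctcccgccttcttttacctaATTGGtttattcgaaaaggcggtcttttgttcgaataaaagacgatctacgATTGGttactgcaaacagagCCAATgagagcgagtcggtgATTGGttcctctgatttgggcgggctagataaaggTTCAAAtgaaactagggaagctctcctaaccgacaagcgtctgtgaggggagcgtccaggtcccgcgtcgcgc
Mcm5: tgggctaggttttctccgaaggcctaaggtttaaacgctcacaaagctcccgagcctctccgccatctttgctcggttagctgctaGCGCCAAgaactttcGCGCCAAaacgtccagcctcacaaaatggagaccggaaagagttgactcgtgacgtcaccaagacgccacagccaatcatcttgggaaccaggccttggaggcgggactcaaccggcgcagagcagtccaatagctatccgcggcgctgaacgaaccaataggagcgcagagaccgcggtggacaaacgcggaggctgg
Of the 8924 tested genes 7338 had a promoter in the RefSeq table, with 9411 windows. TTTGAA was present in 22 of the 24 windows of the mitosis genes (91.7%), against 12.1% of all windows. CCAAT was present in 79.2% of the mitosis windows and 37.7% of all. TTGGCGC was present in 22.2% of the 45 replication windows and 4.15% of all, and a second form of the site, TTCCCGC, in 33.3% and 8.25%. The search took both strands, and CCAAT read on the reverse strand can share bases with TTGGCGC. Of the replication windows 13.3% held TTTGAA, close to the share over all windows. A match describes the letters and does not show that a factor was bound.

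Regulators of the G1 phase did not move as a block, with 5 higher, 6 lower and 6 that did not pass among 17. The shares were 29.4% higher and 35.3% lower, against 26.2% and 26.4% over all genes. The higher ones were inhibitors and antiproliferative genes: Cdkn2b (p15) was at least 4.14-fold higher, Cdkn1a (p21) measured 11.13 and 10.85 in pre-DC and 12.57 and 12.71 in immature DC, a 3.13-fold rise (SE 0.16, adjusted p = 0.00401), and Btg1 was 3.64-fold higher. Cdkn1c (at least 1.44-fold) and Rb1 (0.45), named after their values were seen, made up the 5. The Rb1 call ended in 3 other settings and without any 1 of the 4 arrays (0.34 to 0.56). Cyclin D3 (Ccnd3) was 2.40-fold lower and its kinase Cdk6 2.05-fold lower. Cyclin D1 (Ccnd1) had a difference of 0.61 (adjusted p = 0.0865) and the inhibitor Cdkn2c 0.43 (adjusted p = 0.0515), and neither passed, although Cdkn2c did in 9 of the other settings and Ccnd1 in 2 and without the pre-DC SB202190 array (1.16).

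Genes of ribosome biogenesis fell, whereas most genes for the ribosome's own proteins did not pass. Of 21 tested biogenesis genes 20 were lower and 1 higher, with a median of -1.43. Nop56, a core protein of the particles that modify ribosomal RNA, measured 10.27 and 10.07 in pre-DC and 8.46 and 8.08 in immature DC, a 3.72-fold fall (SE 0.12, adjusted p = 0.00235). Its partner Nop58 was 3.14-fold lower, Ncl, nucleolin, 3.02-fold and Rrp12, which exports ribosomal subunits, 3.22-fold. Npm1, nucleophosmin, was close to the threshold (-0.47, adjusted p = 0.0384), and its call ended in 4 of the other settings and without the pre-DC DMSO array (-0.32) or either immature DC array (-0.45 without DMSO, -0.46 without SB202190). The higher gene was Pes1 (0.58, named after its value was seen), whose call ended with no detection filter and without either SB202190 array (0.41 without pre-DC, 0.42 without immature DC). Of 48 cytosolic ribosomal protein genes 44 did not pass, and the median was 0.06. Rpl3 measured 14.62 and 14.75 in pre-DC and 14.46 and 14.38 in immature DC (-0.27, adjusted p = 0.147) and Rps6 13.78 and 13.76 in pre-DC and 13.67 and 13.68 in immature DC (-0.09, adjusted p = 0.529), where both immature DC values lay slightly below the pre-DC values, and Rpl3 passed with trend and robust moderation. The 4 that passed were Rpl22 (1.41) and Rpl19 (0.46) above, Rps15a (-0.74) and Rpl30 (-0.66) below, and ribosomal protein genes have many processed copies that their probes may share. The Rpl19 call ended with no detection filter and without any 1 array (0.43 to 0.52), that of Rps15a without pre-DC SB202190 (-0.63) or immature DC DMSO (-0.46), and that of Rpl30 without immature DC SB202190 (-0.54).

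Of 57 oxidative phosphorylation genes 3 were higher, 10 lower and 44 did not pass (median -0.23). The shares were 5.26% higher and 17.5% lower, both below the 26.2% and 26.4% over all genes. Ndufa4, a small mitochondrial subunit, was 2.95-fold lower (adjusted p = 0.00340) and Cyc1, cytochrome c1, 1.74-fold, the latter a call that ended without the immature DC SB202190 array (-0.67). Cox5a, of complex IV, had a difference of -0.08 (adjusted p = 0.577). Glycolysis and lactate transport had 10 higher and 2 lower of 17 (median 0.43). Aldoc, an aldolase, measured 7.28 and 6.94 in pre-DC and 11.74 and 11.71 in immature DC, a 24.5-fold rise (SE 0.14, adjusted p = 0.00148), while its other detected probe differed by 1.48. Pdk1, which holds pyruvate back from mitochondria, was 3.62-fold higher. The glucose transporters went opposite ways, with Slc2a1 1.66-fold higher and Slc2a3 3.38-fold lower. The Slc2a1 call ended without the immature DC SB202190 array (0.69). The myeloid hexokinase Hk3 was 3.34-fold lower, and Ldha, lactate dehydrogenase A, had 0.39 (adjusted p = 0.0514), which passed in 9 of the other settings.

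**Figure D3:**
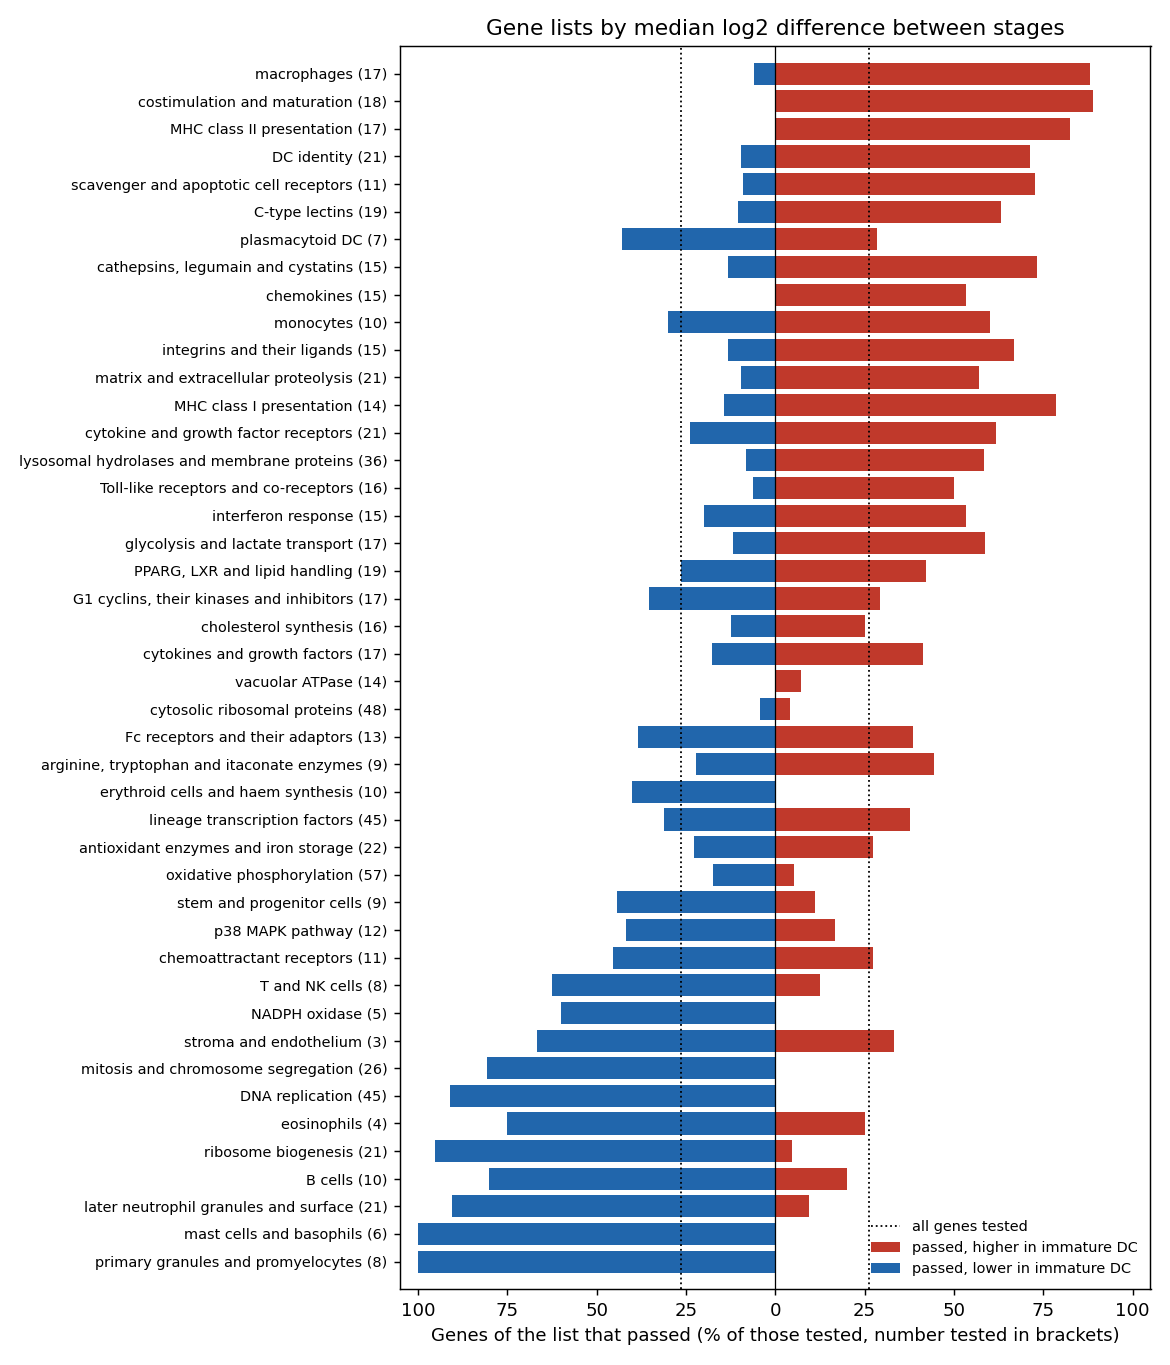
For each of the 44 gene lists, bars show the share of its tested genes that passed as higher (red, right) or lower (blue, left) in immature DC, with lists ordered by median log2 difference and dotted lines at the shares over all genes (26.2% and 26.4%). Macrophage, costimulation and MHC class II lists stand at the top (medians 2.21, 1.97 and 1.70) and the mast cell and primary granule lists at the bottom (-2.94 and -5.46).

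Macrophage genes rose in immature DC. Of 17 tested 15 were higher and 1 lower, against 26.2% higher over all genes, with a median of 2.21. The 3 chains of complement C1q, which macrophages and some dendritic cells secrete, were among the largest rises of the whole table. C1qb measured 6.71 and 8.12 in pre-DC and 13.12 and 13.45 in immature DC, a 58.7-fold rise (SE 0.29, adjusted p = 0.00158). C1qc measured 5.29 and 6.65 in pre-DC and 12.13 and 12.61 in immature DC and was detected on 1 pre-DC array, and C1qa was at least 20.8-fold higher. Mertk, a receptor for dying cells, measured 5.33 and 5.24 in pre-DC and 9.43 and 9.51 in immature DC, a rise of at least 15.5-fold. Mrc1, the mannose receptor, measured 9.90 and 9.03 in pre-DC and 12.62 and 11.85 in immature DC, a 6.84-fold rise (SE 0.12, adjusted p = 0.00148). Trem2, a lipid receptor, was 6.84-fold higher, Apoe 8.20-fold and Adgre1, which encodes the F4/80 antigen, 2.35-fold. The gene that fell was Fcgr4, an activating Fc receptor (-2.65). The summed intensity of the list was 49423 and 41085 in pre-DC and 99023 and 98110 in immature DC.

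Monocyte genes split. Of 10 tested 6 rose and 3 fell, and the summed intensity of the list was 39649 and 35659 in pre-DC and 27762 and 20069 in immature DC. Ccr2, the receptor that brings monocytes out of marrow, measured 7.42 and 7.01 in pre-DC and 10.75 and 10.30 in immature DC, a 9.94-fold rise (SE 0.12, adjusted p = 0.00148). Fn1, fibronectin, was 13.3-fold higher, F13a1, a clotting factor subunit of monocytes, 7.35-fold. Csf1r, the M-CSF receptor, measured 9.97 and 9.97 in pre-DC and 11.88 and 12.05 in immature DC. Ly6c1 measured 14.05 and 14.004 in pre-DC and 11.96 and 11.36 in immature DC, a 5.16-fold fall, and Chil3, a chitinase-like protein, was 2.22-fold lower. Vcan, a proteoglycan, was the third that fell (-0.80, named after its value was seen), a call that ended with no treatment block and without the immature DC SB202190 array (-0.54).

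Receptors for uptake and for microbial products rose in larger numbers than they fell. Of 11 scavenger and apoptotic cell receptor genes 8 were higher and 1, Scarb1 (-0.54), lower, a call that ended in 5 other settings and without any 1 of the 4 arrays (-0.65 to -0.36). Itgb5, which joins in binding dying cells, was 7.46-fold higher, Msr1, scavenger receptor A, 4.63-fold and Axl 3.31-fold. Gas6, the bridge between dying cells and Axl or Mertk, was at least 2.36-fold higher, and Lrp1 was 2.44-fold higher. Cd36 was not detected on any array. Of 16 Toll-like receptor genes and co-receptors 8 were higher and 1 lower. Cd14, the co-receptor for endotoxin, measured 9.77 and 9.09 in pre-DC and 12.09 and 12.05 in immature DC, a 6.26-fold rise (SE 0.20, adjusted p = 0.00278), with Ly96 2.98-fold and Tlr4 2.20-fold higher beside it. Tlr8 was 2.79-fold higher, a call that ended without either immature DC array (1.36 without DMSO, 1.54 without SB202190). Ly86 was 3.43-fold higher, while its partner Cd180 (0.28, adjusted p = 0.294) and Tlr2 (0.24, adjusted p = 0.193) did not pass, and the adaptor gene Tirap was 2.26-fold lower. Cd180 passed with the mean of all probes (0.45) and without the pre-DC SB202190 array (0.71).

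C-type lectins, which bind sugars on microbes and cells, had 12 higher and 2 lower of 19 (median 1.04). Cd207, langerin, measured 5.94 and 5.01 in pre-DC and 7.59 and 9.49 in immature DC, with the highest value in the SB202190 culture of immature DC and detection on 1 pre-DC array (3.06, SE 0.71, adjusted p = 0.0270). Mgl2, a galactose-type lectin of DC and macrophages, measured 12.04 and 12.57 in pre-DC and 14.05 and 14.12 in immature DC, a 3.44-fold rise, and Clec10a, its relative, was 3.68-fold higher. Clec4a3 was 4.09-fold and Clec4n, dectin-2, 2.40-fold higher, while Clec7a, dectin-1, had 0.50 (adjusted p = 0.0533) and passed in 7 other settings. Clec5a fell 4.01-fold. For Clec12a, named after its value was seen, the fall was at least 1.59-fold, and its call ended without the immature DC DMSO array (-0.95). Fc receptors had 5 higher and 5 lower of 13 (38.5% each, against 26.2% and 26.4% over all genes). Fcgr1 was 3.46-fold higher, Fcgrt, which carries IgG across membranes, 4.15-fold, Fcgr3 1.91-fold and the inhibitory Fcgr2b 1.95-fold, although 1 of its 5 probes went the other way. Fcrla, a B cell gene, was 10.4-fold lower. The shared signalling chain Fcer1g measured 14.38 and 14.24 in pre-DC and 14.41 and 14.28 in immature DC and did not pass (adjusted p = 0.804).

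Genes of DC identity rose in 15 of 21 tested cases and fell in 2, with a median of 1.44. Zbtb46, a factor of conventional DC, measured 5.51 and 6.62 in pre-DC and 7.34 and 8.12 in immature DC, a 3.17-fold rise (SE 0.14, adjusted p = 0.00339) with detection on 1 pre-DC array. Itgax, which encodes CD11c, measured 5.16 and 5.26 in pre-DC and 6.55 and 6.75 in immature DC and was at least 2.20-fold higher (adjusted p = 0.00323). Irf4, which directs DC that present on class II, measured 9.07 and 9.68 in pre-DC and 10.93 and 11.40 in immature DC, a 3.46-fold rise (SE 0.12, adjusted p = 0.00243). Of the 24 genes of the list 3 were not detected on any array, among them Flt3 and Cd24a. Summed over the list, intensity was 35305 and 40102 in pre-DC and 67061 and 75149 in immature DC. Mycl, a MYC family factor of DC, measured 6.49 and 7.42 in pre-DC and 9.69 and 10.67 in immature DC and was 9.33-fold higher. Id2 was 3.62-fold higher and Cd1d1, which presents lipids, 4.57-fold. Irf8 was 2.59-fold higher, a call that ended without the immature DC SB202190 array (1.19).

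Cd209a, a lectin used as a DC marker, ordered the arrays by treatment and not by stage. It measured 6.52 and 7.70 in pre-DC and 7.03 and 8.49 in immature DC, so the pre-DC array with SB202190 lay above the immature DC array with DMSO. The difference passed (0.65, SE 0.14, adjusted p = 0.0212), but the call ended without treatment as a block, in the fit over all 6 arrays, and without any 1 of the 4 arrays (differences from 0.24 without the immature DC SB202190 array to 1.06 without the immature DC DMSO array). The 2 genes of the list that fell, named after their values were seen, were Bcl11a (-1.28), a factor of B cells and plasmacytoid DC, and the inhibitory receptor gene Btla (-0.97). The Btla call ended without the pre-DC DMSO array (-0.54) and without either immature DC array (-1.05 without DMSO, -0.87 without SB202190). Macrophage and DC genes thus rose on the same 2 arrays, and the part of one population in the values of the other was not tested.

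MHC class II presentation rose, with 14 of 17 tested genes higher and none lower (median 1.70). Class II chains were already bright in pre-DC: H2-Ab1 measured 13.69 and 14.19 in pre-DC and 15.13 and 15.27 in immature DC, a 2.40-fold rise (SE 0.15, adjusted p = 0.00541), and H2-Aa 11.08 and 11.56 in pre-DC and 12.73 and 13.32 in immature DC, a 3.27-fold rise. The invariant chain Cd74 measured 14.13 and 14.51 in pre-DC and 15.45 and 15.59 in immature DC. Ciita, the activator of the class II genes, measured 9.09 and 9.57 in pre-DC and 10.84 and 11.49 in immature DC, a 3.56-fold rise (SE 0.12, adjusted p = 0.00243). H2-DMa, which helps load peptides, was 3.59-fold higher, H2-Oa, which restrains that loading, 5.28-fold, and H2-Eb2 at least 5.42-fold. Ctss, a protease that cuts the invariant chain, measured 6.999 and 6.79 in pre-DC and 9.91 and 9.87 in immature DC, a rise of 7.99-fold. Lgmn, a protease that cuts antigens, measured 8.87 and 8.54 in pre-DC and 11.75 and 11.78 in immature DC, a rise of 8.35-fold. For H2-Ab1, H2-Aa, Cd74 and Ciita the SB202190 array was the higher of its pair in both stages.

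Class I presentation rose as well, in 11 of 14 tested genes, while 2 fell (median 0.77). H2-K1, a classical class I heavy chain, measured 8.93 and 8.84 in pre-DC and 10.24 and 10.62 in immature DC, a 2.92-fold rise (SE 0.17, adjusted p = 0.00481). Nlrc5, the class I counterpart of Ciita, was 4.33-fold higher, H2-T23 3.69-fold and the peptide transporter Tap1 2.42-fold. B2m, the light chain, was 1.62-fold higher and the immunoproteasome subunit Psmb8 1.65-fold, a call that ended without the pre-DC SB202190 array (0.59) and without either immature DC array (0.66 without DMSO, 0.82 without SB202190). The 2 lower genes were chaperones of the endoplasmic reticulum, Calr (-1.07) and Pdia3 (-0.72, named after its value was seen), and both calls ended without the immature DC SB202190 array (-0.95 and -0.64). H2 genes are close relatives, and their probes may share signal.

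Costimulation and maturation genes rose in 16 of 18 tested cases with none lower (median 1.97), before any TNF-a or IL-1b had been added. The rise is in RNA and relative to pre-DC. Display on the cell surface was not measured on these arrays, and the level relative to mature DC was not tested here. Cd86, the ligand that T cells read through CD28, measured 9.33 and 8.998 in pre-DC and 11.97 and 12.84 in immature DC, a 9.44-fold rise (SE 0.32, adjusted p = 0.00425). Cd40 measured 8.49 and 8.50 in pre-DC and 9.49 and 10.73 in immature DC, a 3.07-fold rise (SE 0.32, adjusted p = 0.0190). In the immature DC pair the SB202190 array was the higher for both. Ccr7, which guides DC to lymph nodes, measured 5.97 and 4.98 in pre-DC and 10.15 and 10.88 in immature DC and was detected on 1 pre-DC array (5.04, SE 0.44, adjusted p = 0.00351). Fscn1, which bundles actin in DC extensions, measured 7.87 and 5.56 in pre-DC and 11.48 and 12.50 in immature DC, and Cd83 9.37 and 7.15 in pre-DC and 11.73 and 12.46 in immature DC. In pre-DC both genes were lower with SB202190 than with DMSO, and in immature DC higher. The Cd83 difference (3.84, SE 0.74, adjusted p = 0.0172) lost its call with trend and robust moderation and without the immature DC SB202190 array (3.14).

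Genes of inhibitory and of stimulatory T cell signals were both among those that rose. Pdcd1lg2 (PD-L2) measured 6.70 and 5.71 in pre-DC and 8.91 and 9.45 in immature DC, a 7.86-fold rise (SE 0.39, adjusted p = 0.00727), and Cd274 (PD-L1) was 4.09-fold higher. Il4i1, an enzyme that degrades amino acids and restrains T cells, measured 10.90 and 9.01 in pre-DC and 13.15 and 13.93 in immature DC, a 12.03-fold rise. Cd200, an inhibitory ligand, was at least 3.71-fold and Tnfsf4, the stimulatory OX40 ligand, at least 2.03-fold higher. Tnfrsf9 (4-1BB), a costimulatory receptor among the 20 largest rises, measured 5.95 and 4.81 in pre-DC and 10.10 and 11.10 in immature DC and was detected on 1 pre-DC array.

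**Figure D4:**
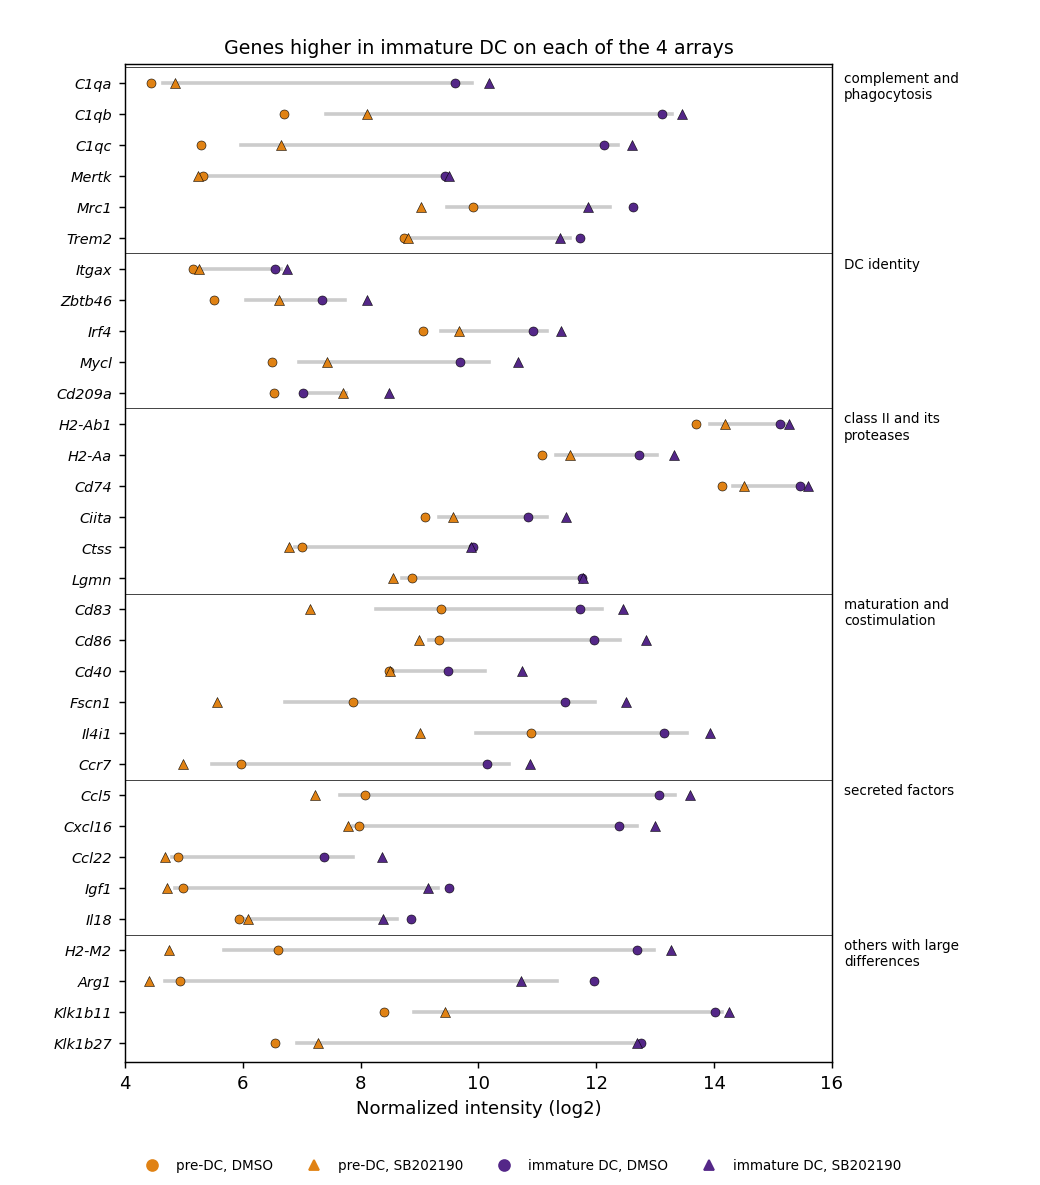
Normalized intensity (log2, x axis) of 32 genes higher in immature DC on each of the 4 arrays, with colour for the stage, shape for the treatment and a grey bar joining the stage means. In Cd209a the 2 stages overlap, while Mertk moved from 5.33 and 5.24 on the pre-DC arrays to 9.43 and 9.51 on the immature DC arrays.

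Chemokine genes rose in 8 of 15 tested cases with none lower (median 0.83). Cxcl16, a membrane-bound chemokine that also takes up lipids, rose by 4.41 with DMSO and 5.22 with SB202190 on the log2 scale, a 28.1-fold mean rise (SE 0.23, adjusted p = 0.00158). Ccl22, which draws regulatory T cells, was at least 5.14-fold higher, and Cxcl1, which draws neutrophils, at least 3.35-fold. Ccl17 measured 12.28 and 12.98 in pre-DC and 13.86 and 14.01 in immature DC, a 2.47-fold rise, and Ccl9 was 3.86-fold higher. Ccl6 was 1.77-fold higher, a call that ended without the immature DC DMSO array (0.53). Of 11 chemoattractant receptors 3 rose (27.3%, against 26.2% over all genes) and 5 fell (45.5%, against 26.4%). Those that rose were Ccr7 and Ccr2 as above and Cx3cr1 (0.67, named after its value was seen), whose call ended with no treatment block, in the fit over all 6 arrays, without the pre-DC DMSO array (0.28) and without either immature DC array (0.89 without DMSO, 0.42 without SB202190). C5ar1, the receptor for complement C5a, was 2.39-fold lower, a call that ended without the immature DC SB202190 array (-0.87), and Cxcr4, which holds cells in marrow, had -0.67 (adjusted p = 0.0890). Cxcr4 passed without background correction (-0.57), with trend and robust moderation (-0.67) and without the pre-DC SB202190 array (-1.11). Ccr1 was not detected on any array.

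The G-CSF receptor fell while receptor chains for GM-CSF rose. Csf3r, the G-CSF receptor, measured 10.38 and 10.37 in pre-DC and 8.50 and 8.70 in immature DC, a 3.42-fold fall (SE 0.13, adjusted p = 0.00258). Csf2rb, the signalling chain of the GM-CSF receptor, was 1.92-fold higher, its relative Csf2rb2 3.37-fold and the GM-CSF binding chain Csf2ra 1.63-fold. The Csf2ra call ended without the immature DC SB202190 array (0.65). In all, 13 of 21 receptor genes rose and 5 fell. Of 17 cytokines and growth factors 7 rose and 3 fell. Igf1, insulin-like growth factor 1, measured 4.98 and 4.72 in pre-DC and 9.50 and 9.14 in immature DC and was at least 14.04-fold higher (adjusted p = 0.00148). Pdgfb was 11.3-fold higher, Il18 6.13-fold, Il15 5.31-fold, Il1a 4.34-fold and Il1b 2.25-fold. The 3 lower genes were Il12a, the p35 chain of interleukin-12 (at least 3.94-fold), Ltb, lymphotoxin beta (4.25-fold), and Tnf (2.09-fold, named after its value was seen). The interleukin-1 antagonist Il1rn had -0.30 (adjusted p = 0.113).

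Adhesion and matrix genes were mostly higher. Of 15 integrins and ligands 10 rose and 2 fell. Itgb7 measured 8.36 and 9.71 in pre-DC and 10.36 and 11.01 in immature DC, a 3.13-fold rise whose call ended without the immature DC SB202190 array (1.60). Itgam, which encodes CD11b, had -0.12 (adjusted p = 0.575), and Itgal, which encodes CD11a, was close to the threshold (0.42, adjusted p = 0.0439), a call that ended with 75th percentile scaling, with no detection filter and without any 1 of the 4 arrays (0.31 to 0.53). Icam2 was 3.43-fold lower. Of 21 matrix and proteolysis genes 12 rose and 2 fell. Mmp12, macrophage elastase, measured 10.19 and 10.21 in pre-DC and 12.19 and 12.09 in immature DC, a 3.83-fold rise (SE 0.12, adjusted p = 0.00217), Mmp13 was 7.47-fold and Mmp14 4.29-fold higher, while Mmp9 fell with the neutrophil genes. Timp2, an inhibitor of these enzymes, was 2.00-fold higher, a call that ended without the pre-DC DMSO array (0.63) and without either immature DC array (1.02 without DMSO, 0.97 without SB202190). Plau, urokinase, had -0.17 (adjusted p = 0.619).

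Lysosomal hydrolases and membrane proteins were mostly higher. Of 36 tested 21 were higher and 3 lower, with a median of 0.70. Pld3, a nuclease of the lysosome, measured 8.92 and 8.42 in pre-DC and 11.53 and 11.21 in immature DC, a 6.49-fold rise (SE 0.12, adjusted p = 0.00150). Gm2a, which lifts gangliosides out of membranes for digestion, measured 12.005 and 12.19 in pre-DC and 14.07 and 14.16 in immature DC, a 4.06-fold rise, and Ids and Hexa, 2 hydrolases, were 3.26-fold and 2.54-fold higher. Lamp1, the main glycoprotein of the lysosomal membrane, measured 12.94 and 12.93 in pre-DC and 13.68 and 13.64 in immature DC, a 1.65-fold rise whose call ended without the immature DC SB202190 array (0.67). Gla was at least 1.35-fold higher, a call that ended without background correction and without the immature DC SB202190 array (0.64), and Lipa, which frees cholesterol from its esters, had 0.38 (adjusted p = 0.0727), which passed in 3 other settings. The 3 lower genes were Galns (-1.66), Arsb (-1.14) and Neu1 (-0.57), of which Arsb and Neu1 were named after their values were seen. The Neu1 call ended with no detection filter, without the pre-DC SB202190 array (-0.34) and without either immature DC array (-0.63 without DMSO, -0.53 without SB202190).

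Of 15 cathepsins, legumain and cystatins 11 rose and 2 fell (median 0.85). Ctsk measured 6.28 and 5.42 in pre-DC and 9.26 and 7.82 in immature DC, a 6.45-fold rise (SE 0.18, adjusted p = 0.00244), with detection on 1 pre-DC array and the lower value of each pair under SB202190. Ctsa was 2.92-fold higher, with differences from 0.36 to 5.09 among its 4 detected probes, and Cst3, the secreted inhibitor cystatin C, 1.73-fold. Ctsd was 1.71-fold higher, a call that ended without the immature DC SB202190 array (0.66), and Ctsl was not detected on any array. The 2 that fell were Cst7, an inhibitor of cathepsins (-3.44), and Ctsw (at least 1.29-fold, named after its value was seen). Of 14 vacuolar ATPase genes 13 did not pass and the median was 0.11. Atp6v0d1 had 0.15, Atp6v1a -0.25 and Tcirg1 0.26, with adjusted p of 0.347, 0.175 and 0.182. The 1 that passed was Atp6v0e (0.49, adjusted p = 0.0309), and its call ended with no detection filter, without the pre-DC SB202190 array (0.42) and without either immature DC array (0.53 without DMSO, 0.48 without SB202190).

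The promoter of Lamp1 (GRCm38.p6, chr8:13158911-13159210, plus strand, RefSeq) is shown because lysosomal genes are known to share an E-box, CACGTG, the core of the element read by TFEB and TFE3. Capitals mark CACGTG, which reads the same on both strands. The window of Gla also held CACGTG, while those of Hexa and Lipa did not.
Lamp1: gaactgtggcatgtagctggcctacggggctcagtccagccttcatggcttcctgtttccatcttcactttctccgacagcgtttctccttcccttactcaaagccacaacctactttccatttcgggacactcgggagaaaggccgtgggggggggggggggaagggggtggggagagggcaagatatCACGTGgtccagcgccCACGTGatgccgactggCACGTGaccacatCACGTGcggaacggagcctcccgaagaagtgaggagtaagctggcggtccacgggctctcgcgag
CACGTG was present in 22.5% of the 40 windows of lysosomal genes and in 33.3% of the 12 windows of vacuolar ATPase genes, against 10.2% of all 9411 windows. It was also in 21.7% of the 23 windows of ribosome biogenesis genes and in 15.6% of the 45 windows of DNA replication genes, lists with no tie to lysosomes. In the 1180 windows of the genes at least 2-fold higher it was 7.37%.

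**Figure D5:**
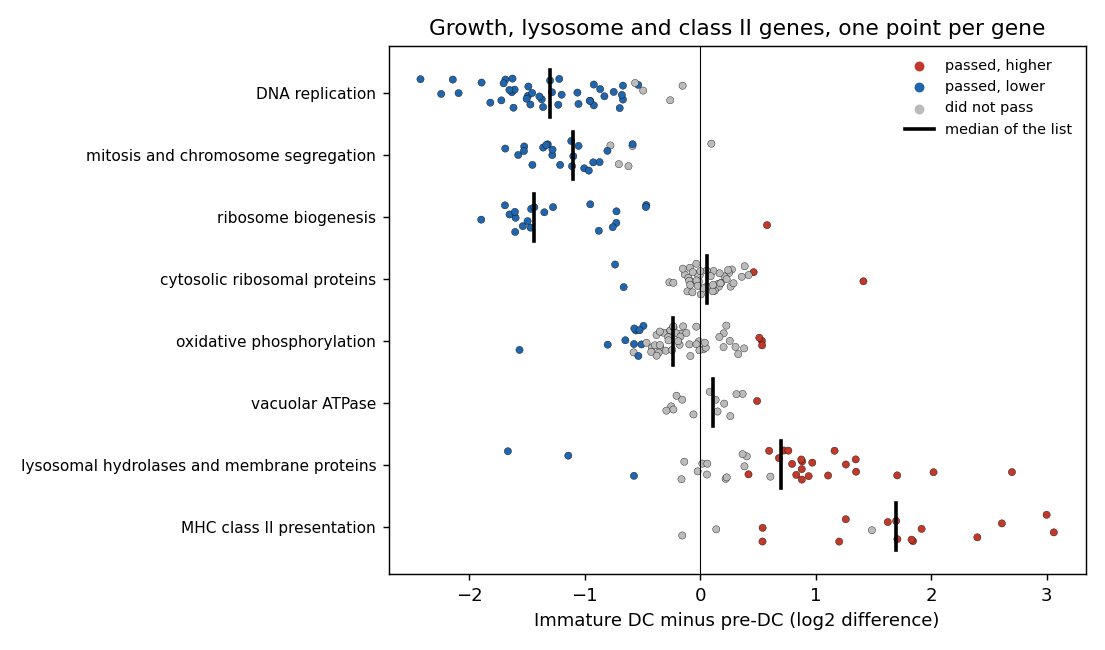
Log2 difference between immature DC and pre-DC (x axis) for every tested gene of 8 lists, with 1 point per gene, red and blue for genes that passed as higher and lower, grey for the rest and a black bar at the median. Replication, mitosis and ribosome biogenesis lie to the left (medians -1.30, -1.10 and -1.43), ribosomal proteins and the vacuolar ATPase around 0 (0.06 and 0.11), and MHC class II to the right (1.70).

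Of 19 lipid handling genes 8 were higher (42.1%, against 26.2% over all genes) and 5 lower (26.3%, against 26.4%), with a median of 0.41. Fabp5, a fatty acid carrier, measured 5.95 and 5.63 in pre-DC and 8.55 and 9.03 in immature DC, an 8.02-fold rise (SE 0.23, adjusted p = 0.00289). Scd1, which desaturates fatty acids, was 6.92-fold higher and Abcg1, which exports cholesterol, 6.25-fold. Dgat2, which makes triglyceride, measured 11.48 and 11.30 in pre-DC and 8.08 and 7.79 in immature DC, a 10.9-fold fall (SE 0.12, adjusted p = 0.00148). Pparg, a nuclear receptor of lipid genes, was close to the threshold (-0.45, adjusted p = 0.0486), its stages overlapped, and its call ended in 4 other settings and without the pre-DC SB202190 array (-0.22) or either immature DC array (-0.41 without DMSO, -0.49 without SB202190). Lpl (0.23, adjusted p = 0.281) and Nr1h3, liver X receptor alpha (0.40, adjusted p = 0.237), did not pass, and Fabp4 was not detected. Lpl passed with the mean of all probes (0.84), its second probe differing by 1.46, and Nr1h3 without the immature DC SB202190 array (0.86). Of 16 cholesterol synthesis genes 4 rose, 2 fell and 10 did not pass. The share that rose was near the 26.2% over all genes, and the share that fell was below the 26.4%. Cyp51 was 1.70-fold higher, a call that ended without the immature DC DMSO array (0.67), and Fdps 2.40-fold lower. Sqle (0.32, adjusted p = 0.0910) and the feedback gene Insig1 (0.36, adjusted p = 0.0720) did not pass, although Sqle did without background correction and with trend and robust moderation.

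Oxidant-producing and protective genes did not share 1 direction. All 3 NADPH oxidase genes that passed, of 5, were lower: Ncf4 (-1.19), Ncf1 (-0.99) and Rac2 (-1.05, named after its value was seen), while the catalytic subunit Cybb had -0.44 (adjusted p = 0.0797) and passed without the pre-DC DMSO array (-0.89). Antioxidant and iron storage genes had 6 higher and 5 lower of 22 (27.3% and 22.7%), near the 26.2% and 26.4% over all genes. Nqo1 was 3.22-fold lower and Gclm, of glutathione synthesis, 2.64-fold. Hmox1, which breaks down haem, was higher (0.58, adjusted p = 0.0205), and its call ended with no treatment block, without the pre-DC DMSO array (0.46) and without either immature DC array (0.60 without DMSO, 0.56 without SB202190). Prdx1 (-0.06, adjusted p = 0.708) and Gpx3 (-0.24, adjusted p = 0.615) did not pass, although Gpx3 did without the pre-DC DMSO array (-0.86).

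Beside the rise of Arg1, the second arginase gene Arg2 fell. Arg2 measured 9.36 and 9.38 in pre-DC and 7.95 and 7.72 in immature DC, a 2.89-fold fall (SE 0.13, adjusted p = 0.00341). Kynu, of tryptophan breakdown, was 5.84-fold higher, and Ido1, the first enzyme of that path, had -0.06 (adjusted p = 0.796), a sign that turned with 75th percentile scaling. Nos2 and Retnla were not detected on any array. Interferon-responsive genes had 8 higher and 3 lower of 15. Mx1 and Mx2, antiviral GTPases, were at least 11.1-fold and 3.60-fold higher, while Ifit2 was 2.58-fold lower (adjusted p = 0.0108). Isg15 was 1.85-fold higher, a call that ended without the immature DC DMSO array (0.56). Ifit3 (0.59, adjusted p = 0.0213) was detected on 1 pre-DC array and lost its call in 4 other settings and without the pre-DC DMSO array (0.41) or either immature DC array (0.59 without DMSO, 0.54 without SB202190). Irf7 was not detected.

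Lineage transcription factors as a group had 17 higher and 14 lower of 45 (median -0.03). The shares were 37.8% and 31.1%, against 26.2% and 26.4% over all genes. Beside the factors above, Egr1 and Egr2, immediate early factors linked to macrophage fate, both rose. Egr1 measured 8.78 and 9.12 in pre-DC and 11.87 and 11.10 in immature DC, a 5.79-fold rise, and Egr2 was 5.03-fold higher. Ets1, a factor of lymphocytes, measured 11.10 and 10.74 in pre-DC and 7.72 and 7.60 in immature DC, a 9.59-fold fall (SE 0.13, adjusted p = 0.00148), and Id1 was 5.47-fold lower. Of 12 genes of the p38 pathway, the target of SB202190, 2 rose (16.7%, against 26.2% over all genes) and 5 fell (41.7%, against 26.4%). Mapk14, which encodes p38 alpha, had -0.43 (adjusted p = 0.0548) and passed in 8 of the other settings. Mapk13, p38 delta, was 4.11-fold lower and the substrate kinase Mapkapk2 1.76-fold. Dusp1, the phosphatase that switches p38 off, measured 9.78 and 9.25 in pre-DC and 11.31 and 11.19 in immature DC, a 3.32-fold rise (SE 0.15, adjusted p = 0.00364), and the other that rose was Zfp36 (1.42, named after its value was seen), which destabilises cytokine messages.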

How the data were processed

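RNA from 6 mouse bone marrow culture samples was hybridised to Illumina bead arrays, 1 array per sample, and 4 arrays were used here. The labels' protocols describe Trizol extraction, RNeasy clean-up with DNase and amplification to biotin-labelled cRNA. The deposited table gives, per the file headers, an average bead intensity and a detection p-value for each of 45281 probes, before normalization. The p-values step as 936 negative control beads would give. A second deposited table holds the authors' processed intensity, on a linear scale from -51.1 to 42993 with column medians from 7.85 to 7.89. Its columns rank probes as the same array's raw intensities do (rank correlation 1, against at most 0.881 for other arrays), so its direction is known, while the exact background and normalization method, like the scanner software, is unstated in the labels and headers.

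Intensities were background-corrected by limma's normexp method from the detection p-values (offset 16), quantile normalized over the 4 arrays and put on the log2 scale with limma 3.58.1 in R 4.3.3. Probes were named from the platform annotation: 34885 had 1 gene symbol, 18 several and 10378 none, and none of the 34885 symbols changed on matching to RefSeq. Each of 19057 genes was represented by its brightest probe, judged on the 4-array mean (9172 genes had several probes), and 8924 genes with a detection p under 0.01 on at least 2 arrays were tested. Stage was tested with lmFit and eBayes with treatment as a covariate, which leaves 1 residual degree of freedom beside 3.1 prior ones, and p-values were adjusted by Benjamini-Hochberg over all 8924 genes. A gene not detected on either array of a stage was given the dimmest detected signal of each array as its bound. The fit was also run on simulated data, with noise drawn from its own prior and changes added to a small part of the genes. That run started after normalization, so it cannot show how often calls on these arrays are wrong. With 1 array per stage and treatment, p-values measure only the spread between these arrays, and the number of arrays limits the precision.

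The comparison and the 44 gene lists were chosen with earlier results of these data known. They hold 986 entries with a probe, of which 781 were tested (724 different genes), and no set test was run. Genes were named by rule. The 20 largest differences in each direction that passed with 1 sign in both treatment pairs were named. So were the hallmark genes of each list, whatever their value. Up to 6 further passing members per list were those with the largest absolute difference. These members were thus picked by size, whether or not a remark beside them says that the value was seen. Genes outside the rule were named after their values were seen, as is said where they appear. Promoters came from RefSeq windows on GRCm38.p6 for 7338 of the tested genes. The alternatives were normalization of all 6 arrays together, a fit over all 6 arrays, no background correction, an offset of 50, scaling to the 75th percentile, the authors' processed values floored at 16, detection on all 4 arrays, no detection filter, the mean of a gene's probes, trend and robust moderation, no treatment block, and leaving out each array in turn. The arrays of mature DC enter only the alternatives that name all 6 arrays and the fits that leave 1 array out.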

Additional observations from a re-analysis of the deposited data

Results flagged for a closer look

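Some results moved in opposite directions in the DMSO pair and the SB202190 pair of arrays. The difference between the pairs was not tested, since each combination of stage and treatment has 1 array, and none of these genes passed the test of the step. Values are log2 differences, immature DC minus pre-DC, with DMSO first. The plasma glutathione peroxidase gene Gpx3 had 0.46 and -0.93, the urokinase gene Plau 0.30 and -0.64, and the liver X receptor gene Nr1h3 0.84 and -0.042. Cd180, a partner of Toll-like receptors, had 0.60 and -0.044, and Itgam, the CD11b chain, 0.12 and -0.35. The peroxiredoxin gene Prdx1 had 0.015 and -0.13. Ido1 went the other way, at -0.36 and 0.23.

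Among the gene lists, the median of the arginine, tryptophan and itaconate enzymes was -0.26 with DMSO and 0.52 with SB202190. The median of the G1 cyclins, kinases and inhibitors was 0.24 and -0.084, that of antioxidant and iron storage genes 0.038 and -0.17, and that of the Fc receptors -0.012 and 0.045.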

How the results depend on the processing

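The counts of 2334 higher and 2358 lower genes lay between 2065 and 2546 under the other normalizations, filters and fits that kept all 4 arrays. No background correction moved the counts of at least 2-fold genes to 611 higher and 477 lower, from 1114 and 955. That alternative compresses folds by construction. The 2-fold counts were also smaller with the mean of a gene's probes (795 and 677) and an offset of 50 (869 and 699). With detection required on all 4 arrays they were 812 and 718, among 7745 genes. The authors' processed values gave more, at 1180 and 1044. Leaving out 1 array at a time gave 1382 to 1998 higher and 1252 to 1960 lower genes, and 995 to 1174 and 815 to 1033 at 2-fold. These fits take in the mature DC arrays, and a stage left with 1 array is assumed to vary like the others. Of the 2069 genes called at 2-fold, 1941 to 2064 still passed, the fewest without the immature DC array with SB202190. Among the genes named here, the signs that reversed were of genes that had not passed. Ido1 turned to 0.0037 with 75th percentile scaling. With 1 array left out, the difference ran from -0.16 to 0.71 for Cd180, -0.040 to 0.51 for Lpl, -0.39 to 0.27 for Ido1, -0.43 to 0.18 for Itgam, -0.58 to 0.25 for Plau, -0.12 to 0.0061 for Prdx1, -0.86 to 0.39 for Gpx3, -0.89 to 0.056 for Cybb and -0.066 to 0.86 for Nr1h3. The cause was not tested. The fit was already paired by treatment; without that block 2333 higher and 2350 lower genes passed. Genes near background have only bounds.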

Other observations

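Some gene families outside the lists above were looked at after their values were seen, and are given as values only. All 5 tested guanylate-binding protein genes, which act against microbes inside cells, were higher in immature DC, with differences from 1.23 for Gbp7 to 4.11 for Gbp2 and a median of 2.53. Gbp2 measured 8.65 and 8.81 in pre-DC and 12.51 and 13.18 in immature DC, and Gbp5 4.67 and 4.70 in pre-DC and 6.93 and 7.50 in immature DC, where Gbp5 was not detected on either pre-DC array (at least 3.26-fold higher). All 10 tested Klk1b tissue kallikrein genes were higher, with differences from 1.98 to 5.81 and a median of 3.79, on probes whose sequences may cross-match within the family. Of 28 sorting nexin genes, which act in endosome traffic, 16 were higher and 1 lower (median 0.45), with Snx21 at 2.30 and Snx8 at 1.09.

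Of 29 genes for the constitutive proteasome 23 were lower and none higher (median -0.63), such as Psmd5 (-1.15) and Psmd7 (-0.99), whereas Psmb8 of the immunoproteasome was higher as described above. Of 16 nucleoporin genes 13 were lower and 1 higher (median -0.97), from Nup43 at -1.76 to Nup98 at 0.85. Of 71 mitochondrial ribosomal protein genes 37 were lower and 4 higher (median -0.41), the largest fall being that of Mrps28 (-1.46). Over all genes tested 26.2% were higher and 26.4% lower.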
